A study of Mus musculus with 24 samples.

Results

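The data described here are small RNA libraries from the sensorimotor cortex of mice operated on at 15 days of age (P15), taken 12 h after the cervical spinal cord was completely transected (SCI, 3 libraries) or only exposed (SHAM, 3 libraries). All mice were males of the C57BL/6J strain, and the labels call the SHAM group wild type and control. They are 6 of the 24 libraries of a series that also holds adult mice (P90) and a later time (3 days), each with 3 SCI and 3 SHAM libraries. The labels do not say whether a library came from 1 mouse or from pooled mice, so the spread between libraries is the only measure of error used. The question was which miRNAs of the cortex, the tissue that holds the cell bodies of the cut corticospinal axons, differed in level at this early time. Whether the sample was the full depth of this cortex or layer V alone differs between passages of the study's methods. The libraries were chosen by age, treatment and time alone, and every miRNA read in them was counted.

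A miRNA gene is transcribed into a hairpin whose 2 arms, 5p and 3p, are cut out as a duplex. Usually one strand of the duplex (the guide) is loaded into an Argonaute protein and kept, whereas the other (the passenger) is degraded and is seen at a far lower level. Positions 2 to 8 of the loaded strand, the seed, pair with target mRNAs, so miRNAs with the same seed are treated as a family. In the cortex the most abundant miRNAs, such as miR-9 and miR-128, are known for neuronal differentiation and excitability.

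The strands that differed most between SCI and SHAM are shown first, because most of them were the low partner strands of well-known miRNAs and are easily mistaken for their partners. Mature sequences are from RefSeq (GRCm38.p6) and are written 5′ to 3′ with the seed in capitals. miR-7b-3p and miR-7a-2-3p share a seed, miR-7a-1-3p has another, and miR-7b-5p is the abundant partner of miR-7b-3p on the same hairpin:
miR-7b-3p: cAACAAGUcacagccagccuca
miR-7a-2-3p: cAACAAGUcccagucugccaca
miR-7a-1-3p: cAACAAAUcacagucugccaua
miR-7b-5p: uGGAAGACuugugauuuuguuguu
The 3p strands of the miR-26 hairpins fall into 2 seed groups, miR-26a-1-3p alone and miR-26a-2-3p with miR-26b-3p:
miR-26a-1-3p: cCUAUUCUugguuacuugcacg
miR-26a-2-3p: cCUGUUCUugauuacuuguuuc
miR-26b-3p: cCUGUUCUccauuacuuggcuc
miR-551b-5p and miR-3072-5p are further strands with a log2 fold change above 1, and miR-150-3p is the strand whose SCI libraries were below SHAM at both ages and times:
miR-551b-5p: gAAAUCAAgcuugggugagaccu
miR-3072-5p: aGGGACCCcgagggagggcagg
miR-150-3p: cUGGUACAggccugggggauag
The strands from introns of Htr2c, the serotonin 2C receptor gene, include the most negative difference and share no seed (the most abundant read of miR-764-3p starts 1 base upstream of the RefSeq form, which shifts its seed):
miR-1298-5p: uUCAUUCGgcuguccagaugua
miR-1912-3p: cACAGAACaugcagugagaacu
miR-764-3p, RefSeq form: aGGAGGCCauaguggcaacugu
miR-764-3p, most abundant read: gAGGAGGCcauaguggcaacugu
miR-448-3p: uUGCAUAUguaggaugucccau

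The 6 libraries held between 10306576 and 22537211 reads. Between 73.9% and 74.4% of the reads lay on miRNA arms in SHAM, and between 77.0% and 77.7% in SCI, so the groups did not overlap (exact permutation test, two-sided, p = 0.10, the smallest that 3 against 3 can give). The gap was 3.28 percentage points over all reads and 1.22 over reads of 20 to 24 nt, the usual length of miRNAs. The part of this gap in the differences below was not tested; normalised counts are scaled to the arms and do not carry it. The labelled tissue was checked against neuronal miRNAs, which were at high levels in every library: miR-9-5p had 1348000 to 1690000 normalised counts, miR-128-3p 1146000 to 1343000 and the neuron-specific miR-124-3p 45880 to 76680. The 10 most abundant arms of each single library held 48.1% to 49.6% of its arm reads. By mean count over the 6 libraries, the 10 most abundant arms were miR-9-5p, miR-128-3p, miR-9-3p, miR-26a-5p, miR-181a-5p, let-7g-5p, let-7f-5p, miR-125b-5p, miR-29a-3p and let-7c-5p. Their log2 fold changes lay between -0.10 for miR-181a-5p and 0.18 for let-7f-5p, and none passed the test. All 6 libraries were kept as separate replicates. Libraries of one group differed from each other by more than counting noise, which does not show that they came from different mice.

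Injury was followed by few differences between SCI and SHAM that exceeded the spread of the libraries. Of 840 arms tested, 1 passed both limits (edgeR quasi-likelihood test with Benjamini-Hochberg adjustment, p below 0.05, and a log2 difference of more than 1 either way), which is 0.119% of the arms. It was miR-7b-3p. At an unadjusted p under 0.05 there were 57 arms, 21 higher (2.5%) and 36 lower (4.29%). In 47 arms (5.6%) all 3 SCI libraries lay above all 3 SHAM libraries, and in 43 (5.12%) all lay below. The median log2 fold change over the 840 arms was -0.01, a value that the scaling holds near 0 and that cannot show an overall shift. Fold changes past 1 in size, at any p, were seen in 22 arms. DESeq2 called 4 arms: miR-7b-3p, miR-26a-1-3p, miR-551b-5p and miR-1298-5p.

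**Figure D1:**
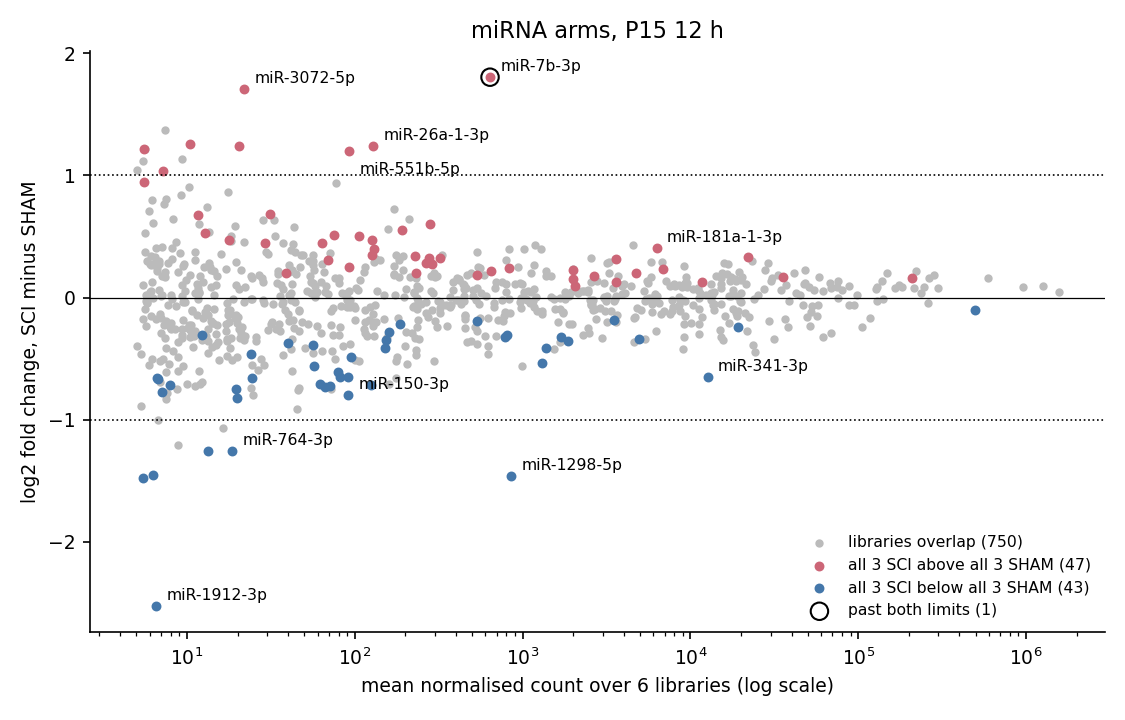
Log2 fold change (SCI minus SHAM, P15 12 h) of each of the 840 tested miRNA arms against its mean normalised count over the 6 libraries (log scale). Red and blue points are the 47 and 43 arms whose SCI libraries were all above or all below SHAM, and the circled point is miR-7b-3p, the only arm past both limits with edgeR. The arms with a mean count above 5000 stay between -0.65 and 0.40.

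Among the 10 arms with the largest positive difference and no overlap (mean normalised count of at least 50), 9 were minor arms, that is, arms whose partner on the hairpin was more abundant. Of the 10 largest negative ones, 6 were minor arms. Over all tested arms with a partner, 24 of 337 minor arms (7.12%) and 22 of 488 major arms (4.51%) were higher in SCI without overlap, and 23 (6.82%) and 20 (4.1%) were lower. Among arms with a mean count of 50 to 5000, 20 of 194 minor arms (10.3%) and 9 of 162 major arms (5.56%) were higher, and 14 and 11 were lower. The medians of both classes in this range were -0.01.

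The miR-7 family held the only difference that passed the test. miR-7 is an ancient miRNA of neurons and neuroendocrine cells, known for its pairing with the circular RNA Cdr1as. Its 5p strands are the guides, and miR-7b-3p is the passenger of the hairpin Mir7b (chr17:56243055-56243076, plus strand, GRCm38, in no annotated gene of that strand). In SHAM, miR-7b-3p had 326, 261 and 265 normalised counts, and in SCI 630, 1130 and 1222. SCI replicate 1 was the lowest of its group and still lay above every SHAM library. miR-7b-3p rose by a log2 fold change of 1.80 (standard error 0.24, edgeR adjusted p = 0.00143). Without SHAM replicate 3 the size was 1.78 and adjusted p = 0.067, and with all 24 libraries in one fit it was 1.83 and adjusted p = 0.184, so the call, unlike the size, was lost under both.

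The difference was seen in the main reads of the strand. The RefSeq sequence itself made up 62.1% of the 3923 reads of miR-7b-3p, and averaged 202 normalised counts in SHAM and 599 in SCI, a ratio of 2.97. The same sequence shortened by 1 base at its 3′ end had a ratio of 4.27, and shortened by 2 bases a ratio of 6.89. The last ratio rests on low counts, with 15.0, 3.16 and 12.0 normalised counts in SHAM, where 3.16 in SHAM replicate 2 is 3 reads. Each of the 3 reads was higher in every SCI library than in every SHAM library, and all begin at the same base, so they carry one seed.

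The partner and the paralogues of miR-7b-3p did not pass the test. miR-7b-5p, the guide from the same hairpin, had 27790, 28370 and 20710 normalised counts in SHAM and 36950, 26140 and 26970 in SCI (log2 fold change 0.23, standard error 0.18). miR-7a-5p, the guide made from the other miR-7 hairpins, had a log2 fold change of 0.11. The passengers miR-7a-1-3p and miR-7a-2-3p had 0.29 and 0.31, with overlapping libraries. All 5 tested arms of the family were above 0 (median 0.29), beside a median of -0.01 and 404 of 840 above 0 over all arms. As a seed family, miR-7b-3p and miR-7a-2-3p together had 1111, 863 and 985 normalised counts in SHAM and 1276, 2085 and 2332 in SCI (log2 fold change 0.94, edgeR adjusted p = 0.111).

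In the miR-26 family, 3p strands of Mir26a-1 and Mir26a-2 were higher in every SCI library, though neither passed the test with edgeR. Each miR-26 hairpin lies in an intron of a gene for a small phosphatase of the C-terminal domain of RNA polymerase II (Ctdspl, Ctdsp2 and Ctdsp1), and the guide, miR-26-5p, is known to act on these host genes during neuronal differentiation. miR-26a-1-3p (chr9:119031850-119031871, plus strand, intron of Ctdspl) had 60.8, 77.9 and 92.0 normalised counts in SHAM and 116, 172 and 253 in SCI. The groups did not overlap, and the SCI libraries differed among themselves by more than the SHAM libraries did. The log2 fold change was 1.24 (standard error 0.29), which did not pass with edgeR (adjusted p = 0.13) and passed with DESeq2 (adjusted p = 0.00987). Its full-length read, 86.2% of the strand, averaged 65.2 in SHAM and 155 in SCI.

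miR-26a-2-3p (chr10:126995581-126995602, plus strand, intron of Ctdsp2) had 161, 165 and 139 normalised counts in SHAM and 241, 249 and 195 in SCI (log2 fold change 0.55, adjusted p = 0.596). miR-26b-3p, which has the same seed as miR-26a-2-3p, had 68.3, 69.5 and 69.3 in SHAM and 80.8, 65.8 and 64.4 in SCI (0.03). The libraries of the third strand thus overlapped, whereas the first pair was higher in every SCI library. The guides miR-26a-5p, read from Mir26a-1 and Mir26a-2 alike, and miR-26b-5p had log2 fold changes of 0.16 and 0.12 with overlapping libraries. For Mir26b, the log2 ratio of 3p to 5p reads differed by -0.10 (standard error 0.16). Of the 5 tested arms of the family, 2 were higher without overlap and all 5 were above 0 (median 0.16), beside 47 and 404 of 840 over all arms.

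miR-551b-5p (chr3:29416840-29416862, plus strand, intron of Egfem1) was the third strand with a positive log2 fold change past 1 among arms with a mean count of at least 50. It had 58.0, 57.9 and 52.0 normalised counts in SHAM and 76.1, 138 and 173 in SCI (log2 fold change 1.20, standard error 0.29, edgeR adjusted p = 0.134, DESeq2 adjusted p = 0.0283). SCI replicate 1 again lay nearest to SHAM, and without it edgeR gave 1.48 (adjusted p = 0.0245). For miR-26a-1-3p the value without SCI replicate 1 was 1.49 (adjusted p = 0.0325). Without SCI replicate 3 the values were 0.91 for miR-551b-5p and 0.90 for miR-26a-1-3p (both with edgeR adjusted p = 0.56), and without SHAM replicate 3 the adjusted p was 0.496 and 0.394. The more abundant partner, miR-551b-3p, had 5618, 9315 and 9304 in SHAM and 6359, 7071 and 9589 in SCI (-0.07).

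SCI replicate 1 was the SCI library nearest to SHAM in 25 of the 47 arms that were higher without overlap, against 8 for replicate 2 and 14 for replicate 3. In the 43 lower arms it was nearest in 8.

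The other 7 of the 10 largest positive differences were smaller, and none passed the test (adjusted p from 0.587 to 0.861). miR-222-5p, the minor strand of a miRNA known from vessel walls and proliferating cells, had 234, 224 and 209 normalised counts in SHAM and 262, 359 and 396 in SCI (log2 fold change 0.60). Its partner miR-222-3p was at -0.07. The reads of miR-222-5p had 2 starts 3 bases apart, and neither of the 2 main reads separated the groups by itself. miR-181a-1-3p was the most abundant of the 10, with 5273, 5512 and 5415 in SHAM and 6994, 6690 and 7757 in SCI (0.40), a narrow spread in both groups. Its partner miR-181a-5p, a guide of brain and lymphocytes, was lower in SCI without overlap, by a small step from 536700, 508200 and 495500 to 456800, 486400 and 494700 (-0.10).

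miR-148a-5p, miR-496a-5p and miR-92a-1-5p had log2 fold changes of 0.50, 0.47 and 0.45. Each is the minor strand of its hairpin, and miR-92a-1 belongs to the miR-17-92 polycistron. miR-122-5p, the main miRNA of liver, had 56.0 to 66.4 normalised counts in SHAM and 66.7 to 112 in SCI (0.51). It was the only major arm among the 10.

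**Figure D2:**
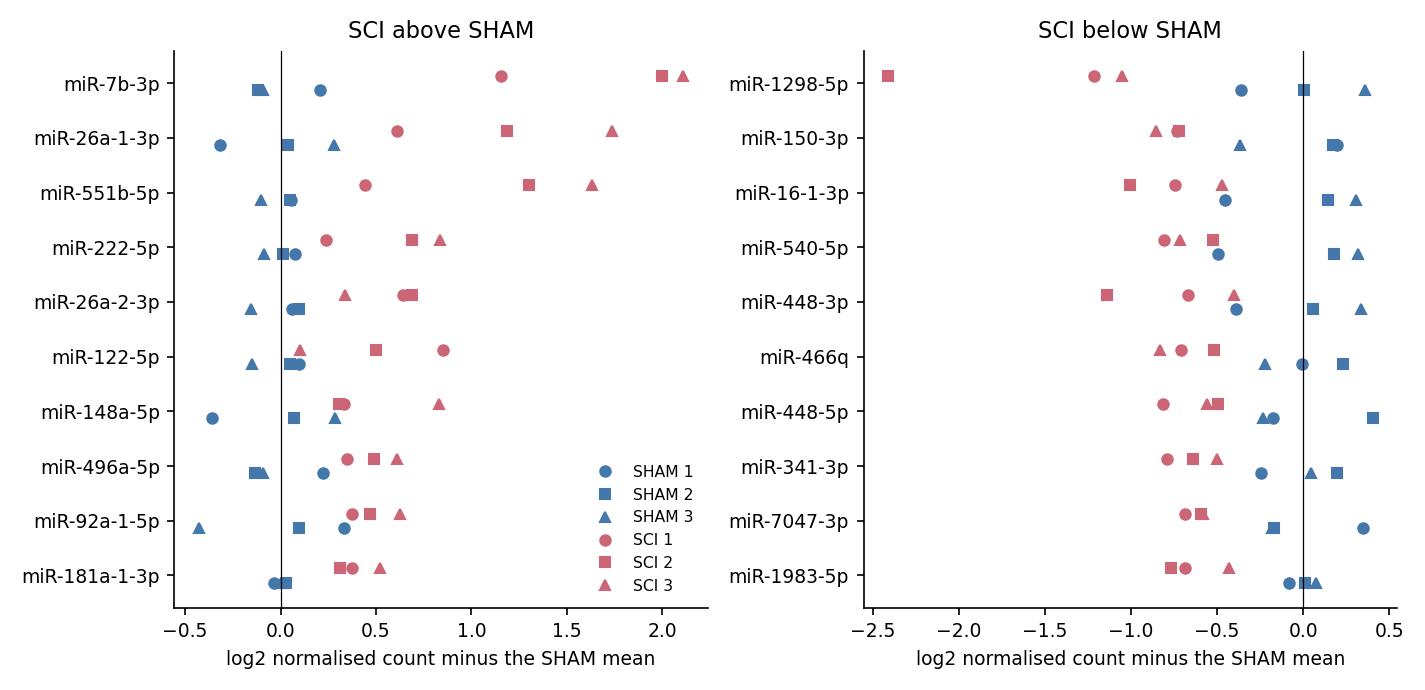
Log2 normalised count of each library minus the mean of the SHAM libraries, for the 10 arms with the largest positive difference (left) and the 10 with the largest negative difference (right) among arms whose groups did not overlap and whose mean count was at least 50. Each symbol is 1 library, SHAM in blue and SCI in red. SCI replicate 1 (red circle) is the nearest to SHAM for miR-7b-3p, miR-26a-1-3p, miR-551b-5p and miR-222-5p.

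On the lower side, the most negative fold change was that of an arm from an intron of Htr2c. This X-linked gene encodes the serotonin 2C receptor, which is strongly expressed in choroid plexus and also in cortical neurons, and its introns hold the hairpins Mir764, Mir1912, Mir1264, Mir1298 and Mir448. Of 11 listed arms 9 matched a hairpin and 8 were tested (miR-448-5p, described below, was not on the list). All 8 had a log2 fold change below 0 (median -0.61, range -2.52 to -0.24), 4 were lower without overlap and 4 had an unadjusted p under 0.05, beside 436 of 840 below 0, 43 lower without overlap and a median of -0.01 over all arms. None of the 8 passed the test with edgeR. The list was chosen with earlier results of these data known, and the study had named miR-1298-5p as lower from its sequencing. The listed arms share a host gene, and some are partner strands. These counts of arms are therefore no independent evidence. The summed normalised counts of the 8 arms were 1387 to 2168 in SHAM and 553 to 1056 in SCI.

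miR-1298-5p (chrX:147064918-147064939, plus strand) carried most of these counts, with 961, 1236 and 1581 in SHAM and 531, 232 and 595 in SCI. Every SCI library was below every SHAM library, and SCI replicate 2 was the lowest. The log2 fold change of -1.46 (standard error 0.29) was at the edge of the edgeR limit (adjusted p = 0.0504) and past it with DESeq2 (adjusted p = 7.71e-05). Leaving out 1 library in turn gave values from -1.71 to -1.13, and edgeR passed it without SHAM replicate 1 (adjusted p = 0.0174) and without SCI replicate 3 (adjusted p = 0.00996). It did not pass without SHAM replicate 2 (edgeR adjusted p = 0.0983), SHAM replicate 3 (0.418), SCI replicate 1 (0.0983) or SCI replicate 2 (0.106). With all 24 libraries in one fit the size was -1.44 and the edgeR adjusted p was 0.999. Its 3 main reads, all with the same start, were each lower in every SCI library, with SCI to SHAM ratios of 0.404, 0.259 and 0.176 from the longest to the shortest. The last ratio rests on low counts, with 5.44, 4.70 and 5.36 normalised counts in SCI. The partner miR-1298-3p had 112, 171 and 133 in SHAM and 103, 105 and 143 in SCI (-0.24), with overlapping libraries.

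miR-1912-3p (chrX:147009493-147009514, plus strand) had the largest fold change of all arms and very few reads. It had 10, 12 and 9 reads in SHAM and 2, 1 and 3 in SCI. The ratio of SCI to SHAM was 0.166 (exact 95% interval 0.0566 to 0.404, counting error only), and the fitted log2 fold change was -2.52 (edgeR adjusted p = 0.0577, DESeq2 adjusted p = 0.308). For comparison, 3 reads corresponded to 2.30 to 4.70 normalised counts in these libraries.

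miR-764-3p had 28.1, 30.5 and 21.3 normalised counts in SHAM and 15.5, 6.27 and 9.96 in SCI (log2 fold change -1.26, adjusted p = 0.398). miR-448-3p had 116, 158 and 192 in SHAM and 95.5, 69.0 and 115 in SCI (-0.71), and miR-448-5p 86.1, 128 and 82.7 against 55.1, 69.0 and 65.9 (-0.65). Both strands of Mir448 thus lay lower in every SCI library, unlike those of Mir1298. miR-1264-5p, miR-764-5p and miR-1264-3p were at -0.51, -0.47 and -0.34 with overlapping libraries.

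Because Htr2c is a gene of choroid plexus, the miRNAs known from choroid plexus and ciliated cells were set beside it. Of the 7 tested, 0 were separated between the groups, against 90 of 840 over all arms, 4 were below 0 and the median log2 fold change was -0.04 (range -0.54 to 0.37). With 7 members, 0 separated cannot be told from that share. Their summed normalised counts were 16960 to 19120 in SHAM and 15160 to 20530 in SCI. miR-204-5p, the most abundant of them, had 13830, 14360 and 14500 in SHAM and 12180, 13260 and 14400 in SCI (-0.10). For miR-204-5p, miR-34b-5p, miR-34b-3p and miR-449a-5p, SCI replicates 1 and 2 lay below every SHAM library and SCI replicate 3 did not. miR-449a-5p had 384, 381 and 1041 in SCI and 442 to 497 in SHAM. For miR-211-5p, miR-34c-5p and miR-34c-3p this pattern was not seen. In bulk tissue, fewer cells of a type and less RNA per cell cannot be told apart.

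**Figure D3:**
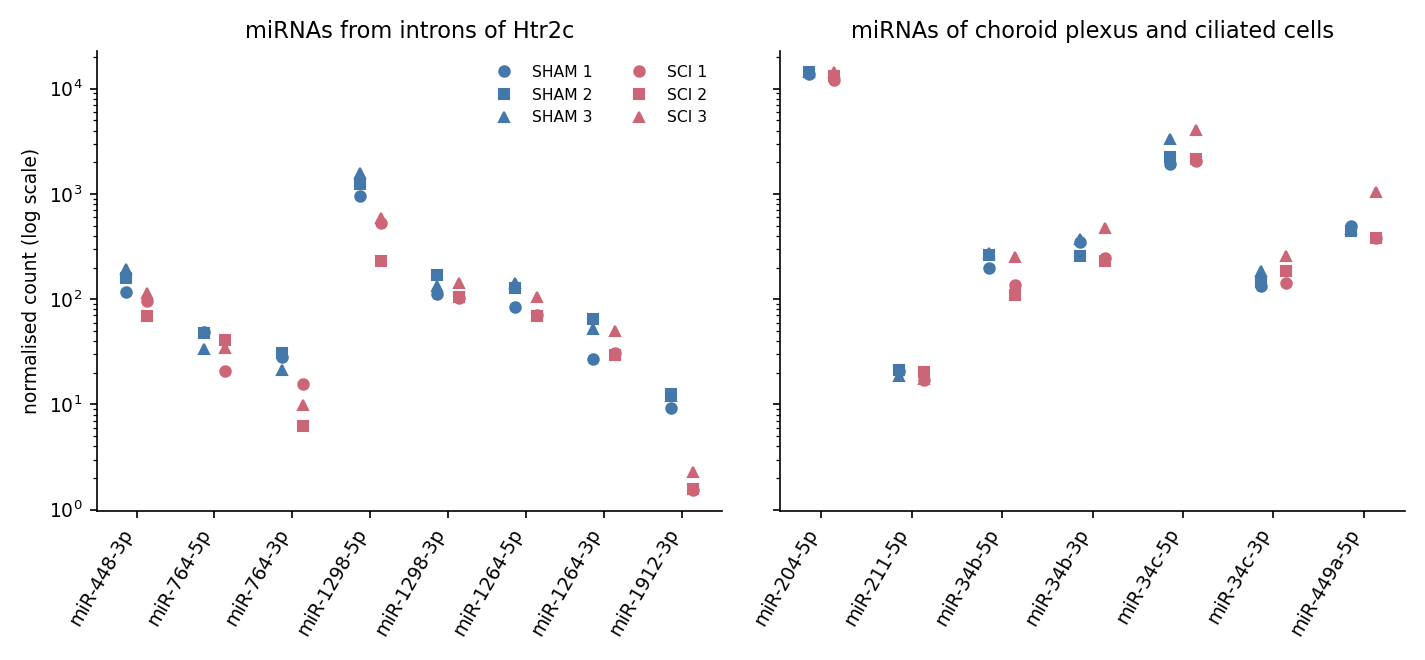
Normalised counts (log scale) of the 8 tested miRNA arms from introns of Htr2c (left) and of the 7 tested miRNAs of choroid plexus and ciliated cells (right), 1 symbol for each library. The SCI libraries lie below SHAM without overlap for miR-448-3p, miR-764-3p, miR-1298-5p and miR-1912-3p on the left (miR-448-5p, the other strand of Mir448, is shown in the plot of the 10 largest differences) and for none on the right.

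The imprinted region of chromosome 12, between Dlk1 and Dio3, holds a long array of miRNA hairpins and is strongly expressed in brain. In its first stretch, from Mir770 to Mir136, 24 arms were tested, of which 0 were higher and 1 lower without overlap (median -0.05), beside 5.6% and 5.12% over all arms. From Mir379 to Mir3072 there were 71 tested arms, 3 higher and 5 lower without overlap (median 0.01). Both stretches thus had shares near those of all arms or below them. Between them, 2 of the 6 tested arms from Mir341 to Mir370 were lower without overlap, against 5.12% over all arms.

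miR-341-3p, from an intron of Rian in this region (chr12:109611560-109611580 for its main read, plus strand), was the most abundant arm among the 10 largest negative differences. It had 12940, 17560 and 15810 normalised counts in SHAM and 8861, 9833 and 10830 in SCI. The edgeR log2 fold change was -0.65, with a standard error of 0.16 and adjusted p = 0.139. This strand is read in 2 main forms. The most abundant read, 60.2% of the strand, starts 4 bases downstream of the RefSeq sequence and averaged 9793 in SHAM and 5538 in SCI, without overlap. The RefSeq form, 19% of the strand, averaged 2651 and 2089 with overlapping libraries. The 2 forms have different seeds and are printed here for that reason:
miR-341-3p, RefSeq form: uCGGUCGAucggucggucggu
miR-341-3p, most abundant read: uCGAUCGGucggucggucagu

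miR-540-5p, also from chromosome 12, had 60.8, 96.8 and 107 normalised counts in SHAM and 48.9, 59.6 and 52.1 in SCI (log2 fold change -0.72), and its major partner miR-540-3p was at -0.05. miR-150-3p is the minor strand of miR-150, a miRNA of mature lymphocytes. It had 130, 128 and 88.0 in SHAM and 68.3, 69.0 and 62.8 in SCI (-0.80, standard error 0.24, adjusted p = 0.443), whereas the major strand miR-150-5p had 0.12. miR-16-1-3p, from an intron of Dleu2, was at -0.73, and the guide miR-16-5p was slightly higher in every SCI library (0.16).

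The rest of the 10 were miR-466q (-0.71), miR-7047-3p (-0.65) and miR-1983-5p (-0.61), of which the most abundant read alone gave 2.50 for miR-1983-5p, so that its direction depends on which reads are summed. The main read of miR-1983-5p, of 19 nt, was not compared with nuclear tRNA genes. Whether it is a miRNA strand or a fragment of another RNA was not tested. Outside the 10, and named after their values were seen, miR-503-5p, which is processed from the X-linked cluster of Mir322 and is known for cell cycle control, had 1353, 1724 and 1563 normalised counts in SHAM and 985, 1078 and 1133 in SCI (-0.54, adjusted p = 0.519).

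Lists of miRNAs known from cell types had medians near 0, and none of their members passed the test. Over all arms, 5.6% were higher and 5.12% lower without overlap, and with so few members the counts of these lists cannot be told from those shares. In the list of neuron-enriched miRNAs 10 were tested, 0 were separated and the median log2 fold change was -0.01. The miRNAs known to follow neuronal activity (miR-132 and miR-212 among them) gave 0 separated of 8 and a median of 0.08. For miR-132-3p, a target of CREB, the libraries held 128400, 118900 and 126300 normalised counts in SHAM and 174800, 123600 and 98400 in SCI. Of 8 miRNAs of microglia and other immune cells, 1 was higher without overlap (median 0.09). It was miR-223-3p, a miRNA of neutrophils and other myeloid cells, with 297, 246 and 312 in SHAM and 339, 401 and 336 in SCI (0.33, adjusted p = 0.861). In the other comparisons of the series miR-223-3p went the other way. It had -0.48 at P90 12 h and -0.49 at P15 3 days, both with overlap. At P90 3 days it had -0.74 without overlap (edgeR adjusted p = 0.0602). miR-155-5p, which macrophages induce on activation, had 437, 439 and 344 in SHAM and 471, 346 and 383 in SCI (-0.02).

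Red blood cell miRNAs had a median of 0.06 with 1 of 4 higher without overlap, and miR-451a, the main miRNA of red cells, was at 0.01. Endothelium and vessel wall gave 0 separated of 4 (median 0.18), oligodendrocytes 0 of 4 (median -0.14) and skeletal muscle 0 of 3 tested (median 0.09). The summed counts of each of these lists overlapped between SCI and SHAM. In the list of hypoxia and p53 response, miR-210-3p, which is induced by hypoxia, had 1606, 1695 and 1417 in SHAM and 1034, 1415 and 1091 in SCI (log2 fold change -0.42, adjusted p = 0.716), and the other member, miR-34a-5p, overlapped.

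For large guide families, too, the counts are to be read against 47 higher and 43 lower of 840. The let-7 family had 0 separated of 9 (median 0.08), the miR-30 family 0 of 5 (median 0.06), the miR-29 family 0 of 3 (median -0.19), the miR-181 family 1 lower of 4 (median 0.04) and the miR-17-92 cluster 0 of 6 (median -0.10). The 9 miRNAs that the study named from its sequencing were partly chosen on these libraries and give no independent evidence. Of the 8 tested, 3 were higher without overlap (miR-7b-3p, miR-26a-1-3p and miR-551b-5p) and 2 lower (miR-1298-5p and miR-671-5p), and miR-709-3p had too few reads to be tested.

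Summed by seed, 716 families were tested and 0 were called with edgeR (0%), with 45 at an unadjusted p under 0.05. DESeq2 called 3, and each of them was a single strand (the families of miR-551b-5p, miR-26a-1-3p and miR-1298-5p). Among the 83 families with 2 or more tested arms, the smallest p was that of miR-7b-3p with miR-7a-2-3p, given above. The family of miR-15 and miR-16, which represses the cell cycle and had 6 tested arms, held 246000, 258200 and 283500 normalised counts in SHAM and 312800, 293900 and 297700 in SCI (log2 fold change 0.20, adjusted p = 0.812). That of miR-26a-2-3p and miR-26b-3p had 0.44 (adjusted p = 0.715).

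The split between the strands was then measured within each hairpin, as the log2 ratio of 3p to 5p reads, which does not depend on how libraries are scaled. Of 270 hairpins with both arms above the filter, 0 were called with limma (0%), 22 had an unadjusted p under 0.05, and the SCI libraries were all above SHAM in 23 and all below in 22. The smallest p was that of Mir3072, in an exon of the long non-coding RNA Mirg on chromosome 12. Its ratio was 5.68, 5.76 and 6.76 in SHAM and 4.23, 4.27 and 3.55 in SCI (difference -2.05, standard error 0.36, adjusted p = 0.208). The minor strand miR-3072-5p had 14.03, 10.53 and 5.33 normalised counts in SHAM and 20.97, 32.91 and 47.51 in SCI (log2 fold change 1.71, adjusted p = 0.134), and the major strand miR-3072-3p had 743, 599 and 651 against 399, 650 and 559 (-0.31).

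Mir1983 (difference 0.78) and Mir3102 (1.59) followed, the latter with 11, 7 and 8 reads of miR-3102-5p in SHAM and 4, 1 and 6 in SCI, beside 0.07 for miR-3102-3p.2-3p. For Mir7b the ratio was -6.41, -6.76 and -6.28 in SHAM and -5.87, -4.53 and -4.46 in SCI (1.53, standard error 0.40, adjusted p = 0.278). Thus the 3p strand of Mir7b remained the minor one in every library. The difference was -1.18 for Mir551b, -0.88 for Mir150 and 1.32 for Mir1298, without overlap and with the same adjusted p of 0.278.

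**Figure D4:**
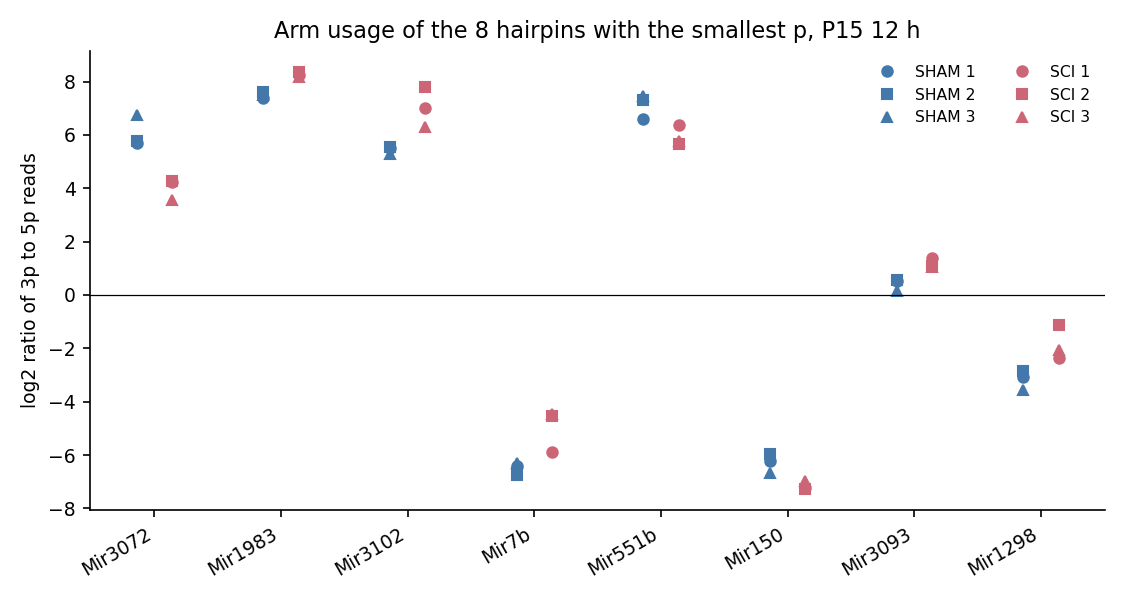
Log2 ratio of 3p to 5p reads in each library for the 8 hairpins with the smallest p, SHAM in blue and SCI in red. The groups do not overlap in any of the 8, and no ratio crosses 0, so the major arm of each hairpin was the same in SCI as in SHAM.

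The differences at P15 12 h were then set beside the 3 other SCI against SHAM comparisons of the series, which have their own SHAM libraries. SHAM libraries 1 and 2 of P15 3 days stood apart from all others: 33.8% and 35.6% of their distinct sequences were read once, against 72.2% to 86.4% in the other 22, and 58.6% and 56.4% of their reads lay on miRNA arms, against 70.8% in SHAM library 3 of that group. Values of P15 3 days are therefore given with them and without them, the latter against 1 SHAM library that is assumed to vary like the SCI libraries.

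The share of all arms without overlap in each other comparison is not given here. The next counts of same and opposite sides therefore cannot be set against it. Of the 90 arms without overlap at P15 12 h, 11 lay on the same side without overlap at P90 12 h, 5 on the opposite side, and 74 overlapped. At P15 3 days there were 21 on the same side and 10 on the opposite side (37 and 27 without the 2 SHAM libraries, where separation is easier), and at P90 3 days 20 and 6. Of the 47 arms that were higher without overlap at P15 12 h, 10 were higher without overlap in at least 3 of the 4 comparisons. These were miR-7b-3p, miR-26a-1-3p, miR-26a-2-3p, miR-551b-5p, miR-222-5p, miR-92a-1-5p, miR-3072-5p, miR-30b-3p, miR-488-5p and miR-499-5p. Of the 43 lower arms there were 4, namely miR-150-3p, miR-425-3p, miR-543-3p and miR-671-5p. Over all 840 arms, 17 were higher and 8 lower in at least 3 comparisons. With P15 3 days left aside, 3 arms were higher in the other 3 comparisons (miR-7b-3p, miR-26a-1-3p and miR-3072-5p) and 3 lower (miR-150-3p, miR-425-3p and miR-543-3p).

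Exactly 1 arm was higher without overlap in all 4 comparisons, miR-26a-1-3p, and 1 was lower in all 4, miR-150-3p. The log2 fold change of miR-26a-1-3p was 1.24 at P15 12 h, 1.08 at P90 12 h, 2.04 at P15 3 days (1.95 without the 2 SHAM libraries, edgeR adjusted p = 0.011) and 0.89 at P90 3 days. With all libraries it passed the edgeR test in none of them (adjusted p from 0.107 to 0.275). miR-150-3p had -0.80, -0.96, -1.27 and -1.28 in the same order (adjusted p from 0.0602 to 0.485), so it passed the test in none of them, and without the 2 SHAM libraries it had -1.38 at P15 3 days (edgeR adjusted p = 0.0539). At P90 12 h it had 75.9, 56.3 and 58.4 normalised counts in SHAM and 24.3, 45.8 and 29.9 in SCI. miR-7b-3p was higher without overlap in 3 comparisons. At P15 3 days its SHAM libraries ranged from 850 to 3812 and overlapped with SCI (log2 fold change 0.85, and 1.92 with edgeR adjusted p = 0.0349 without the 2 SHAM libraries).

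The strands from Htr2c varied far more between libraries of the other groups. At P90 12 h miR-1298-5p had 433, 421 and 407 normalised counts in SHAM and 5467, 389 and 424 in SCI, and at P15 3 days 488, 2565 and 1035 against 7381, 5000 and 820. At P90 12 h a single SCI library stood far from the rest, and at P15 3 days the libraries of both groups spread widely. The 6 libraries of P15 12 h lay between 232 and 1581. miR-448-3p and miR-1912-3p followed the same libraries, with 423 and 59.6 in the first SCI library of P90 12 h and 45.5 and 3.52 or less in the others of that group. At P90 3 days, the log2 fold change of miR-1298-5p was -3.48 (edgeR adjusted p = 0.0322), with 3302, 375 and 3278 in SHAM and 217, 182 and 229 in SCI. The choroid plexus miRNA miR-204-5p was high in some of the same libraries. At P90 12 h it had 30120, 9287 and 9606 normalised counts in SCI and 8765 to 11190 in SHAM, and at P90 3 days 16860, 10630 and 18890 in SHAM and 8940, 9465 and 9464 in SCI (-0.74, edgeR adjusted p = 0.0685). At P15 3 days miR-204-5p had 42030, 50780 and 24180 normalised counts in SHAM and 39720, 33180 and 24770 in SCI. Its log2 fold change there was -0.26, and 0.39 without the 2 SHAM libraries, whereas miR-1298-5p was above 0 both ways. The part of choroid plexus tissue in these differences was not tested. The difference of miR-1298-5p at P15 3 days was 1.70 on the log2 scale, and 2.06 without the 2 SHAM libraries.

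**Figure D5:**
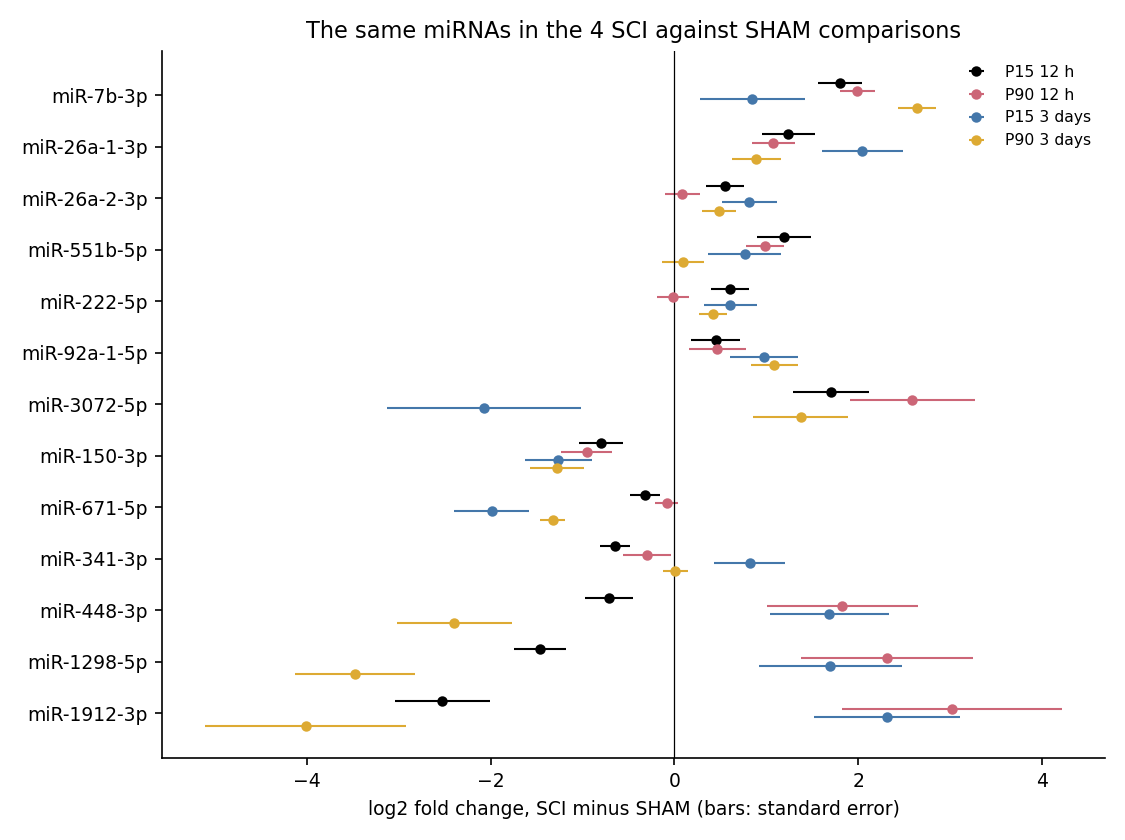
Log2 fold change (SCI minus SHAM) with its standard error for 13 miRNA arms named in the text, in the 4 comparisons of the series, P15 3 days with all its libraries. Several arms, among them miR-7b-3p, keep the sign of their fold change in all 4. Only miR-26a-1-3p and miR-150-3p were also without overlap between libraries in all 4, which the plot does not show. The Htr2c strands miR-448-3p, miR-1298-5p and miR-1912-3p are below 0 at P15 12 h and P90 3 days and above 0 in the other pair.

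Whether the response at P15 12 h differed from that at the other age or the other time was tested as an interaction, each over 12 libraries. Against P90 12 h, 0 of 811 arms passed with edgeR (0%), with 40 at an unadjusted p under 0.05 and 2 called by DESeq2. The smallest p was that of miR-5126, with 0.12 at P15 and 2.86 at P90 (difference -2.72, standard error 0.52, adjusted p = 0.108). For miR-7b-3p the difference was -0.18 (standard error 0.33) and for miR-26a-1-3p 0.17 (standard error 0.38).

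Against P15 3 days, 0 of 919 arms passed with edgeR (0%), with 183 at an unadjusted p under 0.05 and 58 called by DESeq2. The smallest p were those of miR-6481 (difference -2.48), whose main read also matches the mitochondrial tRNA gene mt-Tf, miR-1912-3p (-4.84) and miR-671-5p (1.69), each with adjusted p = 0.151. This count depended on the SHAM libraries of P15 3 days. Without SHAM library 3, which leaves the 2 libraries that stood apart, 260 arms passed, and without those 2 there were 0 of 899, with 47 at an unadjusted p under 0.05. The differences without them were -2.83 for miR-6481, -5.25 for miR-1912-3p and 0.86 for miR-671-5p (edgeR adjusted p = 0.135, 0.233 and 0.309).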

How the data were processed

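Small RNA was sequenced by the study with high-definition adapters, which carry random bases at their ends to reduce ligation bias. The authors removed reads with undetermined bases, trimmed the 3′ adapter by a perfect match to its start and trimmed the adapter signatures. The deposited counts are whole reads per distinct sequence, 1 file for each library, with no alignment and no normalisation. No aligner enters them. Submitted libraries are used as labelled, with control taken as SHAM.

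Reads of 18 nt or more were assigned by whole-read exact sense match to the arms of 1174 mouse miRNA hairpins (GENCODE M21, GRCm38), split at the loop with RNAfold 2.7.2 and named from RefSeq where a mature sequence was listed (1657 arms), and summed to 1691 features. Arms with the same main read were merged. Reads that matched more than 1 feature (0.116% to 0.172% of arm reads) were left out. Counts were scaled by TMM to the mean library. Arms with a mean normalised count of at least 5 over the libraries of the fit were tested with edgeR 4.0.16 (quasi-likelihood, Benjamini-Hochberg), and called where the adjusted p was below 0.05 with a log2 difference of more than 1 either way. Arm usage was tested with limma 3.58.1 on log2 ratios with a pseudocount of 0.5. DESeq2 1.42.0 was an alternative. Steps were tested on simulated data. Standard errors of edgeR fold changes are the fold change divided by the root of the F statistic. Those of arm usage are the moderated standard errors of limma. Depth was 10306576 to 22537211 reads for each library, and intervals cover counting error only.

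Named were the called arms, the 10 largest differences in each direction without overlap at a mean of at least 50, the 10 most abundant arms, list members, partner arms, the 3 smallest p of arm usage and the largest interactions. The libraries, lists and rules were chosen with earlier results of these data known.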

Additional observations from a re-analysis of the deposited data

Results flagged for a closer look

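Of the arms named in the text, 3 had SCI libraries that lay on one side of SHAM at P15 12 h and on the opposite side at P90 12 h or P15 3 days, with no overlap in either. miR-1983-5p was lower at P15 12 h (log2 fold change -0.61) and higher at P90 12 h (0.39) and at P15 3 days (0.69), with differences of -0.98 (adjusted p = 0.629) and -1.23 (adjusted p = 0.206). It was also higher without overlap at P90 3 days (0.71), a comparison for which no interaction was fitted. miR-448-5p was lower at P15 12 h (-0.65) and higher at P15 3 days (0.69), a difference of -1.30 (adjusted p = 0.151). miR-341-3p was at -0.65 and 0.82, a difference of -1.40 (adjusted p = 0.151), and its P15 3 days SHAM libraries had 6232, 7881 and 16860 normalised counts. Without SHAM libraries 1 and 2 of P15 3 days, which stood apart, the P15 3 days values were 0.07 for miR-341-3p, with overlap, 0.57 for miR-448-5p and 0.63 for miR-1983-5p. The edgeR interaction test passed none of these differences.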

How the results depend on the processing

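The call of miR-7b-3p held with other scalings, a higher filter, the main read only and shared reads split. The number of called arms was 1 and became 4 with DESeq2, 6 without the filter, 2 with reads of 20 nt or more, 18 with unadjusted p, 0 with all 24 libraries in one fit and 0 to 3 with 1 library left out. Without SHAM replicate 3 it was 0. The labels do not say whether libraries with the same replicate number form pairs, and 3 libraries a group cannot settle it. Correlations of same-numbered libraries were 0.113, -0.131 and 0.203, and not every library correlated best with its own number. With a replicate block 0 arms were called, and miR-7b-3p had 1.75 (adjusted p = 0.0882). The 47 higher and 43 lower of 840 arms without overlap became 72 to 129 and 65 to 116 with 1 library left out, where separation is easier. With a mean count of at least 50 there were 35 higher and 28 lower of 542 tested arms. With the main read only there were 53 higher and 28 lower of 703 tested arms.
Called seed families went from 0 to 3 with DESeq2, 5 without the filter and 0 to 7 with 1 library left out, and called hairpins from 0 to 7 with unadjusted p, 1 with a pseudocount of 5, 1 with the main read only and 0 to 1 with 1 library left out. Interactions against P90 12 h went from 0 to 2 with DESeq2, 7 without the filter and 0 to 1 with 1 library left out, and against P15 3 days to 58, 71, 76 with all 24 libraries and 0 to 260. Leaving out SHAM libraries 1 and 2 of P15 3 days, a choice made after seeing the data, gave 0. The read share difference was 3.14 to 3.52 with 1 library left out and 1.22 for 20 to 24 nt.
miR-1983-5p, one of the 10 largest negative differences (-0.61), turned to 2.50 with the main read only. Among single arms with small differences, the sign turned with the main read only for miR-155-5p (0.08), miR-181a-5p (0.06), miR-222-3p (0.04) and miR-26b-3p (-0.06), and with all 24 libraries for miR-155-5p (0.01). With 1 library left out it turned for the following arms, given by lowest and highest log2 fold change: let-7c-5p -0.02 to 0.38, let-7g-5p -0.05 to 0.22, miR-124-3p -0.02 to 0.34, miR-132-3p -0.16 to 0.26, miR-155-5p -0.15 to 0.10, miR-222-3p -0.15 to 0.06, miR-26b-3p -0.08 to 0.10, miR-29a-3p -0.25 to 0.09, miR-3102-3p.2-3p -0.04 to 0.22, miR-34a-5p -0.46 to 0.09, miR-451a -0.07 to 0.13, miR-5126 -0.06 to 0.51, miR-540-3p -0.11 to 0.05, miR-551b-3p -0.26 to 0.08, miR-6481 -0.59 to 0.13, miR-9-3p -0.03 to 0.26 and miR-9-5p 0.00 to 0.13. None of these arms passed the test. The cause of these changes was not tested. The depth limits arms near 3 reads (2.30 to 4.70 normalised counts), among them miR-1912-3p and miR-3102-5p.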
